A study of Mus musculus with 4 samples.

Results

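The small leucine-rich proteoglycans analysed here were the 10 genes Dcn, Bgn, Aspn, Lum, Fmod, Prelp, Omd, Ogn, Epyc and Chad, picked by gene symbol out of the 32285 genes of a single-cell RNA-Seq (scRNA-Seq) data set of mouse bone. All 10 symbols were found once in each library. The data set held 4 libraries, a control and a glucocorticoid (GC, prednisolone) library each for fracture callus and for trabecular bone, so every comparison of GC with control was a comparison of 1 library with 1 library and no test between conditions was possible. The mice were 20-week-old C57BL/6J males with no stated genetic alteration, collected at week 2 of prednisolone at 6.25 mg/kg/d or its control, and the callus mice also carried a fracture. Per the labels the drug came from implanted slow-release pellets, with placebo for controls, whereas the study's account of the fracture model gives daily injections; the number of mice behind each library was not given. Cells were released with collagenase and dispase after the marrow had been flushed out, so the proportions of skeletal cells depend on how well each tissue was digested.

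These proteins share a core of repeated leucine-rich motifs that binds collagen fibrils, and most of them carry sugar chains. Class I holds Dcn (decorin) and Bgn (biglycan), which carry chondroitin or dermatan sulfate chains and bind growth factors of the TGF-beta family, together with Aspn (asporin), which has an aspartate-rich end in place of such chains. Class II holds Lum (lumican), Fmod (fibromodulin), Prelp and Omd (osteomodulin, also called osteoadherin), fibril-binding proteins, some of which can carry keratan sulfate. Class III holds Ogn (osteoglycin or mimecan) and Epyc (epiphycan, a protein of growth cartilage), and class IV holds Chad (chondroadherin), a cartilage protein that binds cells and collagen. In skeletal tissue the family sets the width and spacing of collagen fibrils in cartilage, tendon and bone.

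Most of the family lies in gene clusters. On the mouse build GRCm38 with the GENCODE M21 annotation, Dcn (chr10:97479609-97518143), Lum (chr10:97565128-97572703) and Epyc (chr10:97644068-97682454) lie on the plus strand of chromosome 10, with Kera between Lum and Epyc. Aspn (chr13:49544443-49567565), Omd (chr13:49582462-49592822) and Ogn (chr13:49608046-49624501) follow each other on the plus strand of chromosome 13, with no other protein-coding gene between them. Prelp (chr1:133910304-133921414, minus strand) and Fmod (chr1:134037254-134048277, plus strand) are neighbors on chromosome 1. Chad (chr11:94565047-94569127) and Bgn (chrX:73483602-73495933) have no member next to them. The identifiers of the genes in the files are ENSMUSG00000019929 (Dcn), ENSMUSG00000031375 (Bgn), ENSMUSG00000021388 (Aspn), ENSMUSG00000036446 (Lum), ENSMUSG00000041559 (Fmod), ENSMUSG00000041577 (Prelp), ENSMUSG00000048368 (Omd), ENSMUSG00000021390 (Ogn), ENSMUSG00000019936 (Epyc) and ENSMUSG00000039084 (Chad).

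Promoter sequences from RefSeq (GRCm38.p6, 250 bases before to 50 bases after the annotated start) were matched for 8 of the 10 members, Dcn and Lum excepted. Those of the chromosome 13 neighbors are shown because the levels of these adjacent genes differ across cell classes, and that of Chad because its level differed from that of the other cartilage members. Capitals mark every match, on either strand, of TATAAA, which reads TTTATA on the other strand, and of ACANNNTGT, the core of the palindromic site of glucocorticoid and related receptors, in which N is any base and which reads alike on both strands; matches may overlap. All are written 5′ to 3′ on the strand of the gene.
Aspn (chr13:49544193-49544492, plus strand): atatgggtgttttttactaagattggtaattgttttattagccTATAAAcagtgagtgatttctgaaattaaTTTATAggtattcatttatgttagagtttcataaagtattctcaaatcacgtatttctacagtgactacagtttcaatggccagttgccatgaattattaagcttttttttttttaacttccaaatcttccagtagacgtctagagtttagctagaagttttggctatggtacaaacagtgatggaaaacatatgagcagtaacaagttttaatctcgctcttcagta
Omd (chr13:49582212-49582511, plus strand): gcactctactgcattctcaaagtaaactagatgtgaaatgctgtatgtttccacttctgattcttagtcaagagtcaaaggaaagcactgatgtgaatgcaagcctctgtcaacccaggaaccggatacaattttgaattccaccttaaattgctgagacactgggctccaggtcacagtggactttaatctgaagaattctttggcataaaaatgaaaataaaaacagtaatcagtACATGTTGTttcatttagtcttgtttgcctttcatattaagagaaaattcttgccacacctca
Ogn (chr13:49607765-49608064, plus strand): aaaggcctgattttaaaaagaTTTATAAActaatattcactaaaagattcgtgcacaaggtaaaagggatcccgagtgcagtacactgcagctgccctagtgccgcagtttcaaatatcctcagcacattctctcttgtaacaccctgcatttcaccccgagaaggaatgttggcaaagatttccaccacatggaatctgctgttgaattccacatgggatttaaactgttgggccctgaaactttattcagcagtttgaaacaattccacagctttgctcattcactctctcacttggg
Chad (chr11:94564797-94565096, plus strand): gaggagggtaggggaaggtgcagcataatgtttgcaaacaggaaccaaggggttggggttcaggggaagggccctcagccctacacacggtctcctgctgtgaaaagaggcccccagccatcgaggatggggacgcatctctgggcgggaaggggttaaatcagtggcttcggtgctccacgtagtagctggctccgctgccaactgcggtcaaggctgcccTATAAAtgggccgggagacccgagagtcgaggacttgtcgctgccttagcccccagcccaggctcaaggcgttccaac

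TATAAA occurred in the Aspn promoter with first bases at -207 and -178 relative to the start, in the Ogn promoter at -229 and -227, and in the Chad promoter at -28. Omd had none, and was the only one of the 8 members with ACANNNTGT, at -13. Over 32851 promoters of this length, 13.6% held TATAAA and 6.85% held ACANNNTGT. These are matches of letters in a window and were not tested as binding sites.

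After filtering, 6714 control and 6890 GC callus cells and 3832 control and 4604 GC trabecular cells remained, with a median of 3268.5 to 6238 UMIs (counted molecules) per cell and 6 to 11 cell barcodes shared by each pair of libraries. Cells of a tissue were clustered over both libraries without the members, and clusters were called by marker genes. Levels are given as CPM, the UMIs of a gene scaled to 1000000 UMIs of the class. They were counted at the 3′ end of transcripts and not divided by gene length, so a gene is compared with itself across classes and not with other genes. Intervals are exact Poisson or conditional 95% intervals and cover counting error only. A gene was counted as past the fold when the log2 ratio of GC to control, after adding 5 CPM to both, was at least 1 in either direction, with at least 50 UMIs over both libraries and at least 15 cells of the class in each. As a check on the labels, 4 of 6 GC-induced genes were higher past that fold over all trabecular cells of the GC library, with log2 ratios of 1.64 for Fkbp5, 1.35 for Zbtb16, 1.09 for Tsc22d3 and 1.06 for Klf9. None of these 6 genes was past it over all callus cells. Sgk1 had 0.89 there, Fkbp5 0.57, Klf9 0.33, Zbtb16 0.29, Tsc22d3 0.19 and Per1 -0.38.

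The family marked the skeletal cells of the callus, and each gene had its own order of classes. The skeletal classes were chondrocyte-like cells (1646 in control, 1950 in GC), hypertrophic chondrocyte-like cells (759 and 811), osteoblast or osteocyte-like cells (74 and 86), tendon cell-like cells (26 and 29), pericyte or smooth muscle cell-like cells (19 and 22, called pericyte-like from here on) and a cluster led by Cilp and Tnn (330 and 322) that carried 11 of 12 chondrocyte and 4 of 4 tendon markers and was left unnamed. In the Cilp and Tnn cluster chondrocyte markers summed to 50110 CPM in control and 44616 in GC, and tendon markers to 143 and 167. Osteoblast or osteocyte markers summed there to 30256 and 42524, and stromal progenitor markers to 5472 and 5578. All hematopoietic classes together held between 0.566% (Ogn) and 1.25% (Lum) of the UMIs of a member in control callus and between 0.282% (Epyc) and 0.857% (Bgn) in GC callus. B cell-like cells, which should lack these genes, gave the background: in control callus 125 CPM for Bgn, 70.1 for Dcn and 65.3 for Chad, and 55.8 or less for the other members. Droplets without a cell in the same library held 1826 CPM of Bgn, 889 of Dcn and 823 of Chad. In B cell-like cells of GC callus Lum was at 11.7 CPM and Fmod at 10.3, against 55.8 and 31.9 in control. No other member parted there by more than its interval. Several other hematopoietic classes carried less of the family in the GC library. From control to GC, its summed level went from 242 to 115 CPM in osteoclast-like and from 283 to 150 in monocyte-like cells. For T or NK cell-like cells it went from 344 to 186. All 5 measured members had a log2 ratio under 0 in each of these classes, against 1 of 3 in erythroid-like cells. As another way of processing, the B cell-like CPM of the same library was taken off each skeletal class. The log2 ratio of Dcn in pericyte-like cells then went from 1.99 to 3.61. That of Chad in tendon cell-like cells went from -2.40 to -3.41. Beyond this, the part of the background in the skeletal ratios was not tested.

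Aspn, the asporin gene, and Ogn, next but one to it on chromosome 13, had the steepest step from the first class, tendon cell-like cells, to the next. That class carried 4 of 4 tendon markers, summing to 1951 CPM in control and 1942 in GC. It also carried 11 of 12 stromal progenitor markers, at 16264 and 14153 CPM. These stood at 9361 in pericyte-like cells and 5472 in the Cilp and Tnn cluster of control callus, so the class may hold other stromal cells. Aspn stood at 4303 CPM (95% interval 4065 to 4551) in tendon cell-like cells of control callus and at 4945 (4715 to 5183) in GC. The next classes, the Cilp and Tnn cluster at 574 and pericyte-like cells at 511 in control, overlapped in their intervals. Chondrocyte-like cells held 174, osteoblast or osteocyte-like cells 29.6 and hypertrophic chondrocyte-like cells 14.3, the last with an interval that overlapped that of the B cell-like background of 7.17. Ogn stood at 2165 in tendon cell-like cells of control and at 2303 in GC, at 301 and 153 in the Cilp and Tnn cluster, and at 49.2 or less in both chondrocyte-like classes of both libraries. With 0.387% of the control callus cells, the tendon cell-like class held 9.45% of the Aspn and 11.6% of the Ogn UMIs of that library, and with 0.421% of the GC callus cells it held 24.6% and 25.5%.

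Bgn, Dcn, Lum and Fmod were broad but had the same first class in control callus. Bgn stood at 4605 CPM in tendon cell-like cells, 3286 in the Cilp and Tnn cluster, 2414 in pericyte-like and 2360 in osteoblast or osteocyte-like cells, whose intervals overlapped, and 1629 and 1587 in chondrocyte-like and hypertrophic chondrocyte-like cells. In GC callus the Cilp and Tnn cluster led with 3754 and tendon cell-like cells followed with 3543, with overlapping intervals. Dcn varied least among the cartilage and bone classes, from 1339 in hypertrophic to 1824 in the Cilp and Tnn cluster, with 3299 in tendon cell-like cells. Lum stood at 1011 in osteoblast or osteocyte-like cells, with an interval that overlapped that of the 1049 in the Cilp and Tnn cluster, against 461 in chondrocyte-like and 175 in hypertrophic chondrocyte-like cells. Fmod went from 1839 in tendon cell-like cells through 1261 in the Cilp and Tnn cluster and 719 in chondrocyte-like cells to 142 in hypertrophic ones, which did not part from the 144 of osteoblast or osteocyte-like cells.

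Omd, Epyc and Chad had another order, led by the chondrocyte-like classes or the Cilp and Tnn cluster. Omd, named for bone, stood at 275 in the Cilp and Tnn cluster and 262 in chondrocyte-like cells of control callus, which did not part by their intervals, and at 118 in osteoblast or osteocyte-like cells and 105 in tendon cell-like cells. Epyc stood at 102 (99.4 to 105) in chondrocyte-like cells, 22.7 in the Cilp and Tnn cluster and 12.2 in hypertrophic ones. No Epyc UMI was found in the 26 control and 29 GC tendon cell-like cells, which allows up to 10.5 CPM in control and 8.53 in GC from a floor of 3 counts. Chad stood at 1465 in hypertrophic and 1222 in chondrocyte-like cells of control callus, and in GC the order turned, with 1648 and 2035. Prelp, a class II member that binds basement membranes as well as collagen, stood at 330 in tendon cell-like, 260 in chondrocyte-like and 215 in Cilp and Tnn cells, and at 33.8 in hypertrophic ones.

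**Figure D1:**
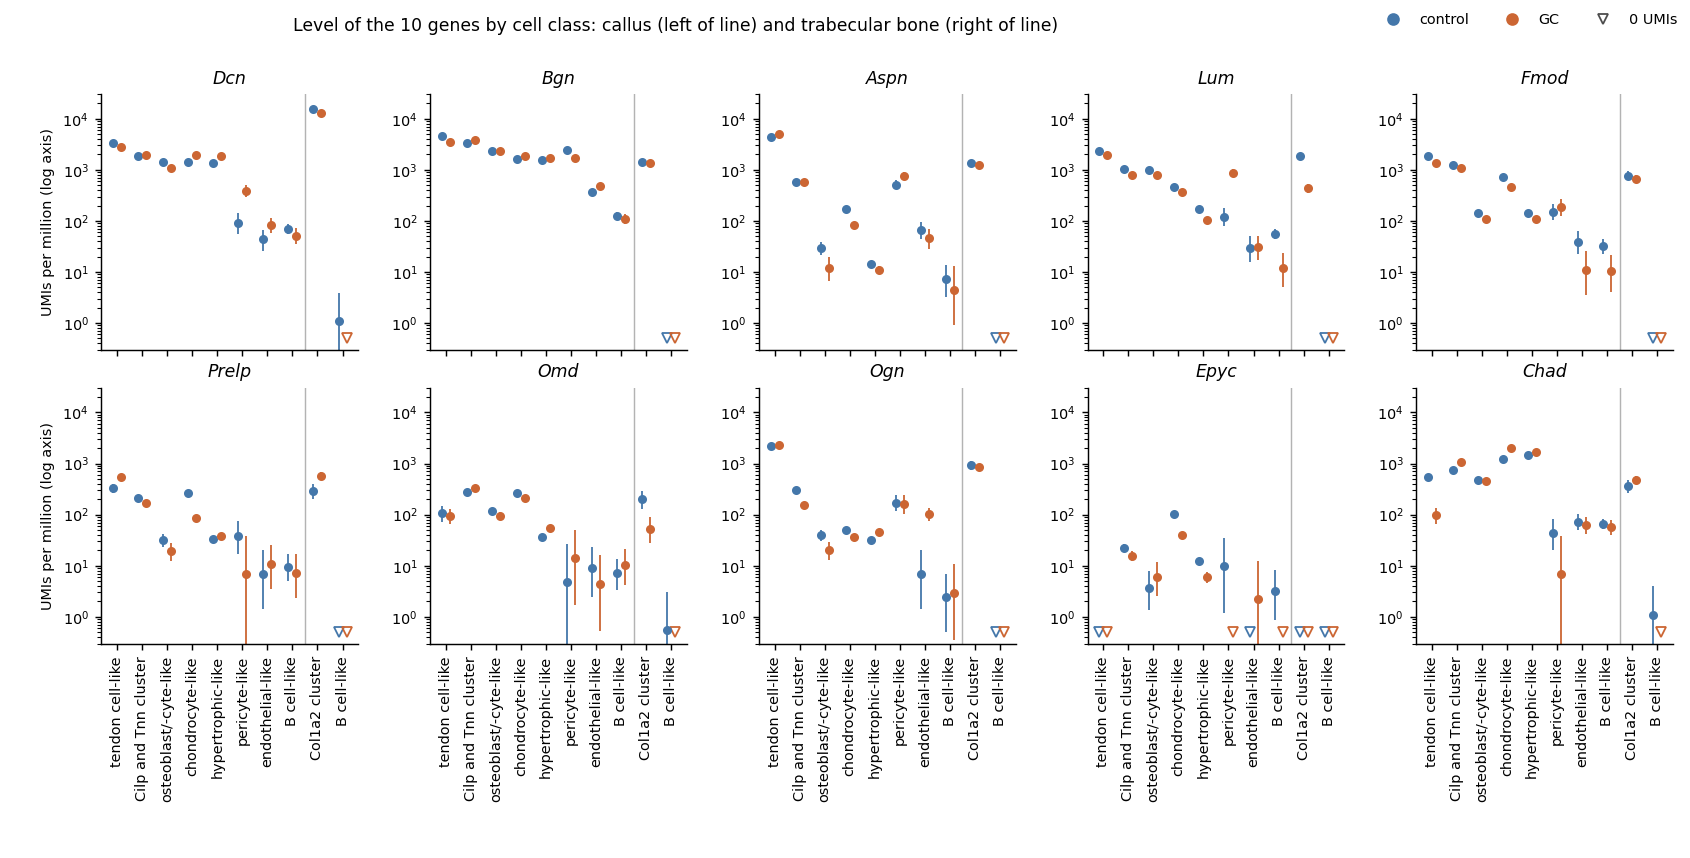
Level of each of the 10 genes in CPM on a log axis, in 8 callus classes and, right of the line, the Col1a2 cluster and B cell-like cells of trabecular bone; points are single libraries (blue control, orange GC), bars are 95% Poisson intervals and open triangles mark 0 UMIs. In control callus 7 of the 10 genes were highest in tendon cell-like cells, Epyc was at 0 there, and B cell-like cells held no more than 125 CPM of any member.

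Over 34 points, 17 callus classes in each of 2 libraries, the log2 levels of Aspn and Ogn had a Pearson correlation of 0.95, whereas Omd, which lies between them, had 0.67 with Aspn and 0.69 with Ogn. On chromosome 10, Dcn had 0.90 with Lum and 0.58 with Epyc, and Lum had 0.45 with Epyc. The lowest of the 45 pairs was Ogn with Epyc at 0.27. Epyc and Chad, both high in chondrocyte-like cells, had 0.74. Of the 17 classes 10 were hematopoietic, with the members near background. The correlations therefore include the step from these classes to the skeletal ones. The points share the same 2 libraries and the same background, and are a description.

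Among 10358 other genes, those with the most similar pattern over these points included collagens and other matrix genes. Fmod was closest to Thbs3, a thrombospondin (r 0.99), Bgn to the collagen genes Col6a3 and Col5a2 (0.97 for each), Lum to the collagen gene Col16a1 (0.96), Aspn to the microfibril gene Fbn1 (0.97), Dcn to Gpx3 (0.96) and the collagen crosslinking enzyme Lox (0.95), and Ogn to Igsf10 (0.97). Chad was closest to Acan, the main proteoglycan of cartilage (0.95), Prelp to Itm2a (0.95), Omd to Kcnma1 (0.95) and Epyc to Meltf (0.91).

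Across 6 cartilage clusters, Fmod, Aspn, Prelp, Omd, Epyc and Lum were lower towards hypertrophy, and Dcn, Bgn and Chad were not. Ogn was in neither group. Cluster 1, which had the most Col10a1 (62094 CPM in control and 30833 in GC), was left out and broke this order. In its 67 control cells Lum stood at 637 CPM, above all 6 clusters. Fmod stood there at 402, Omd at 212 and Aspn at 69.9, against 234, 43.0 and 17.7 in cluster 6. The order used here was set after the clusters were seen: cluster 23 with 461 CPM of the division gene Mki67 in control, clusters 11, 4 and 6, with 1281, 11028 and 39389 of the hypertrophic collagen Col10a1, and the hypertrophic chondrocyte-like clusters 10, with 40243 of Col10a1 and 659 of the signal Ihh, and 7, with 28614 of Col10a1. Fmod in control went from 1075 and 1144 CPM in clusters 23 and 11 to 624, 234, 205 and 51.5 in clusters 4, 6, 10 and 7. Aspn went from 339 and 371 to 82.4, 17.7, 19.6 and 7.02 in the same order. Prelp went from 610 and 448 to 191, 44.4, 36.3 and 29.1. These 3 genes were several times higher in the clusters with the least Col10a1.

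Omd stood at 279 and 440 CPM in clusters 23 and 11 of control callus, at 252 in cluster 4 and at 43.0, 56.3 and 7.36 in clusters 6, 10 and 7. Epyc went from 143 and 159 through 107 to 16.6, 16.9 and 4.52. Lum had the shallower course, from 523 and 580 through 506 to 218, 221 and 109. Dcn stayed between 1218 and 1533 across the 6 clusters and Bgn between 1317 and 1803. Chad was lowest in cluster 23 at 499 and highest in clusters 10 and 4, at 1727 and 1691. Ogn stood at 22.3 in cluster 23, 93.4 in cluster 11, and 30.9, 22.1, 42.7 and 17.2 in clusters 4, 6, 10 and 7. In GC Ogn was highest in cluster 10, at 81.6. By value, Fmod, Aspn, Prelp, Omd, Epyc and Lum were lowest in cluster 7 in GC as well.

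**Figure D2:**
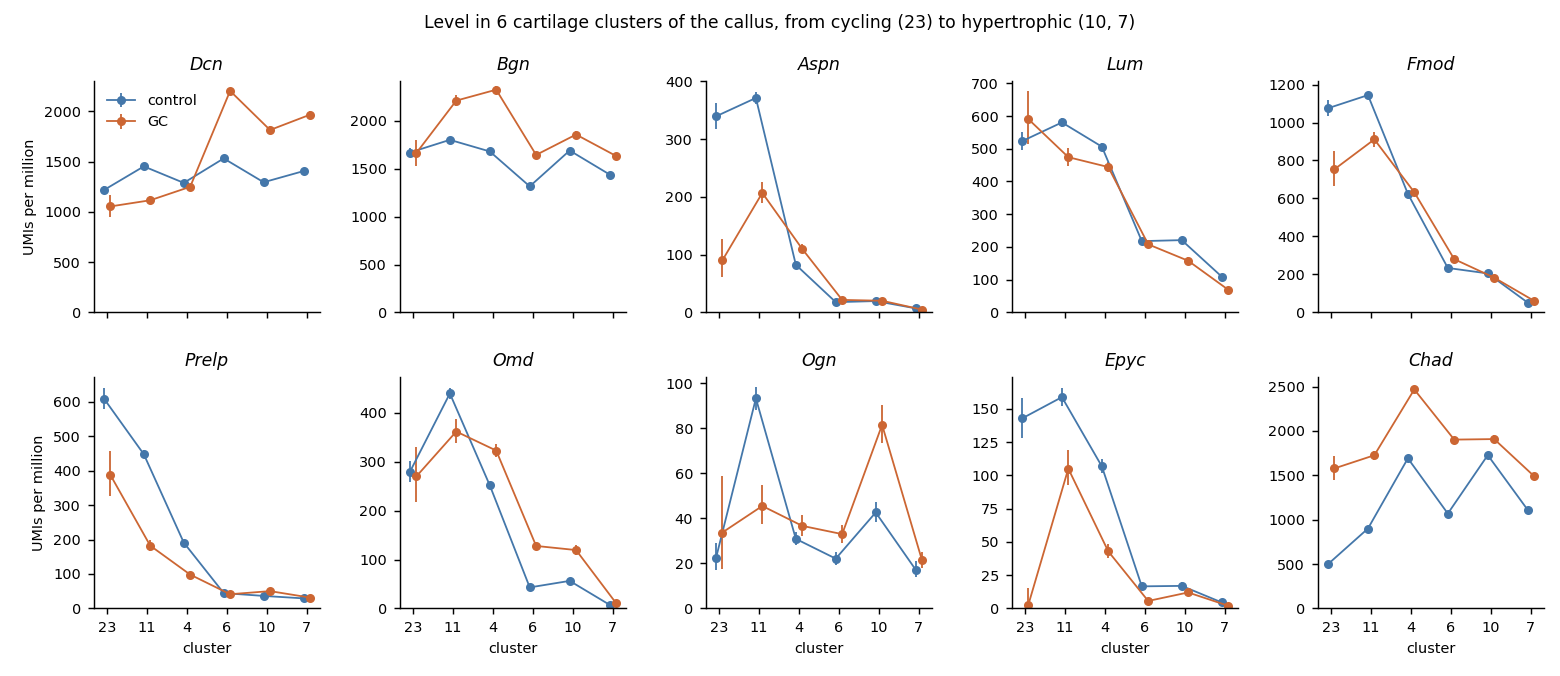
Level of each gene in CPM (linear axis from 0) in 6 cartilage clusters of the callus, ordered by eye from dividing (23) to hypertrophic (7), for control (blue) and GC (orange); points are 1 library each, bars are 95% Poisson intervals, and lines only join the points. Fmod in control went from 1075 in cluster 23 to 51.5 in cluster 7, while Chad was higher in GC in all 6 clusters shown; cluster 1, mostly of the GC library, and the shallow cluster 14 are left out.

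In chondrocyte-like cells the GC library was lower in 3 members past the fold and higher in none, of 10 measured. Over all 12831 genes measured in this class, 0.585% were lower and 0.475% higher past the fold, and the median log2 ratio was 0.03 for all genes and -0.35 for the members. Prelp was at 260 CPM in control and 87.5 in GC (ratio 0.336, 95% interval 0.320 to 0.353). Epyc was at 102 and 39.2 (0.382, 0.355 to 0.411) and Aspn at 174 and 84.0 (0.484, 0.459 to 0.509). Their log2 ratios with the added 5 CPM were -1.52, -1.28 and -1.01. Aspn sat at the edge of the fold, and was past it in 11 of 19 other ways of processing the data, against 18 of 19 for Prelp and 17 of 19 for Epyc.

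The other members of the class were inside the fold and did not go one way. Fmod, with a log2 ratio of -0.65, was past it when each cell was thinned to 1000 UMIs (-1.04, with Aspn then inside at -0.91) and with the mean over cells (-1.09, with Epyc then inside at -0.84). Fmod was at 719 and 457, Lum at 461 and 372, Omd at 262 and 216 and Ogn at 49.2 and 35.9, lower in GC. Dcn was higher, at 1405 and 1915 (log2 ratio 0.45), as was Chad, at 1222 and 2035 (0.73), and Bgn was at 1629 and 1850 (0.18). The sign of Bgn turned to -0.17 when each cell was thinned to 1000 UMIs and to -0.16 with the mean over cells, and that of Omd to 0.09 with clusters weighted equally. The share of cells with at least 1 Prelp UMI after thinning was 18.1% in control and 6.81% in GC (71.3% and 32.2% without thinning), against 0.509% and 0.286% in B cell-like cells, and that of Chad was 55.1% and 74.1%, against 5.43% and 6.29%. The median depth of chondrocyte-like cells was 25615 UMIs in control and 4904.5 in GC, so the shares without thinning do not compare like with like.

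The mix of clusters behind this class differed between the libraries. Clusters 11 and 23, the highest in Prelp, Fmod, Aspn and Epyc in the control library, held 519 and 85 control but 87 and 19 GC cells, cluster 4 held 556 and 270, cluster 6 held 419 and 352, and cluster 1 held 67 control and 1222 GC cells with a median of 3194 and 2567.5 UMIs per cell. Cluster 1 had 62094 CPM of Col10a1 in control and 30833 in GC, and 5305 and 15808 of Col1a1. The hypertrophic chondrocyte-like clusters 10 and 7 had 24490 and 26345 of Col10a1 in GC. With clusters 4, 6, 11 and 23 weighted equally and cluster 1 left out, an alternative chosen after seeing the data, the log2 ratio was -0.85 for Prelp, -0.89 for Aspn, -1.33 for Epyc, -0.25 for Fmod and 0.88 for Chad, so that 1 member stayed past the fold. Without cluster 1 and with the remaining cells pooled, also chosen after seeing the data, the values were -1.49, -1.02, -1.47, -0.48 and 0.79, and 3 members stayed past it. Under equal weights the member past the fold was Epyc. Its log2 ratios in clusters 4, 6, 11 and 23 were -1.22, -1.03, -0.57 and -4.24. Cluster 23, with the same weight as the others, had 1 Epyc UMI in its 19 GC cells.

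Cluster by cluster, Chad was higher in GC in all of clusters 23, 11, 4, 6, 10 and 7, and Epyc was lower in clusters 23, 11, 4, 6 and 10 and under the count minimum in cluster 7 (27 and 14 UMIs). Chad was at 499 and 1578, 900 and 1726, 1691 and 2467, 1069 and 1902, 1727 and 1908, and 1110 and 1490 CPM in control and GC, past the fold in cluster 23. In cluster 1 Chad went the other way, at 2644 and 1801. The background of calls differed widely between these clusters. The share of all measured genes lower and higher in GC past the fold was 4.8% and 2.89% in cluster 23, 1.67% and 0.373% in cluster 11, 0.628% and 0.329% in cluster 4, 0.372% and 0.513% in cluster 6, 0.576% and 0.733% in cluster 10, and 1.98% and 18.0% in cluster 1, where the median log2 ratio of all genes was 0.37. Epyc was lower past the fold in clusters 4 (107 and 42.9 CPM), 6 (16.6 and 5.59) and 23 (143 and 2.81, from 358 and 1 UMIs). Prelp was lower past it in cluster 11 alone, at 448 and 182 (log2 ratio -1.27). Inside the fold, it was at 610 and 388 in cluster 23 (-0.64), 191 and 98.2 in cluster 4 (-0.93) and 44.4 and 41.2 in cluster 6. By value Prelp was higher in GC in clusters 10 (36.3 and 50.2), 7 (29.1 and 31.4) and 1 (67.1 and 77.0). Aspn differed in sign between clusters. It was at 339 and 90.0 in cluster 23 (-1.86, from 851 and 32 UMIs, past the fold) and 371 and 207 in cluster 11, but at 82.4 and 110 in cluster 4 and 17.7 and 21.6 in cluster 6. Omd was higher in GC past the fold in clusters 6 (43.0 and 128, log2 ratio 1.47) and 10 (56.3 and 119, 1.02). In cluster 1, with its 67 control cells, Epyc was higher past the fold (22.4 and 59.7, from 8 and 265 UMIs) and Ogn lower (143 and 34.7, log2 ratio -1.89, from 51 and 154 UMIs), and median-ratio scaling moved all ratios by 0.11 on the log2 scale.

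The chondrocyte markers themselves summed to 103328 CPM in control and 79010 in GC over this class, all 12 of 12 found in both, the 6 hypertrophic markers to 17566 and 22280, and the 11 osteoblast markers to 13956 and 28417. The part of these shifts in the values of the members was not tested.

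In hypertrophic chondrocyte-like cells 0 of 10 members were past the fold, where 0.299% of 11045 genes were lower and 0.389% higher. Lum was lowest at 175 and 105 CPM (-0.70). Epyc was at 12.2 and 5.91, and its ratio of 0.485 (0.361 to 0.645) gave a log2 ratio of -0.66 once 5 CPM were added. Fmod was at 142 and 110, Aspn at 14.3 and 10.9, Prelp at 33.8 and 39.0 and Bgn at 1587 and 1728, all closer than these. Dcn was at 1339 and 1904 (0.51), Omd at 36.3 and 53.6 (0.51), Ogn at 32.1 and 44.9 (0.43) and Chad at 1465 and 1648 (0.17). Dcn was thus above control in both cartilage classes. In the chondrocyte clusters it was lower in GC in clusters 11 (1453 and 1116) and 23 (1218 and 1055), and close in cluster 4 (1289 and 1250). It was higher in clusters 6 (1533 and 2205) and 1 (2180 and 2951). With clusters 4, 6, 11 and 23 weighted equally, the log2 ratio of Dcn in chondrocyte-like cells was 0.03.

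In the Cilp and Tnn cluster 0 of 10 members were past the fold, against 0.636% of 9756 genes lower and 0.215% higher. Ogn was at 301 and 153 CPM (ratio 0.508, 0.468 to 0.552, log2 ratio -0.95), just inside it. Chad was at 755 and 1083 (0.52) and Lum at 1049 and 793 (-0.40), while Aspn, at 574 and 568, and Dcn, at 1824 and 1933, were close.

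In osteoblast or osteocyte-like cells 1 of 9 members, Aspn, was lower past the fold and none higher, where 1.16% of 5712 genes were lower and 0.823% higher. It rested on 49 UMIs in 14 of 74 control cells and 16 UMIs in 8 of 86 GC cells, 29.6 and 11.8 CPM (ratio 0.401, 0.213 to 0.717), and 12 of the 49 and 6 of the 16 came from 1 cell each. All 9 measured members had a lower value in GC in this class, although for Prelp, Omd, Ogn and Chad the sign turned in 1 or 2 of 14 other ways of processing. Bgn at 2360 and 2293 and Chad at 483 and 462 had ratios whose intervals included 1, and Dcn, Lum and Fmod were at 1419 and 1078, 1011 and 802, and 144 and 108. Chondrocyte markers summed to 16425 and 8867 CPM here, 12 and 11 of 12 found; their part in these values was not tested.

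In tendon cell-like cells 1 of 9 members, Chad, was lower past the fold and none higher, where 3.37% of 1988 genes were lower and 2.62% higher. Chad was at 533 CPM (452 to 625) in 26 control cells and 96.7 (67.0 to 135) in 29 GC cells, a log2 ratio of -2.40. It was found in 16 and 11 cells, and 1 cell held 34.2% of the control UMIs and another 32.4% of the GC UMIs; without them, an alternative chosen after seeing the data, it was at 368 and 68.4. Prelp was at 330 and 537 (0.70), and Aspn, Ogn, Dcn, Lum, Fmod and Bgn had log2 ratios between -0.43 and 0.20. Chondrocyte markers summed to 4180 and 2414 CPM in this class, and their part in the Chad value was not tested. The direction of Chad was opposite to that in the cartilage classes, which was not tested. Of the 6 GC-induced genes 3 were measured in tendon cell-like cells, all with a lower value in GC. Tsc22d3 was past the fold (log2 ratio -1.19), and Sgk1 (-0.60) and Klf9 (-0.52) were inside it.

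In pericyte-like cells 2 of 6 members, Dcn and Lum, were higher past the fold and none lower, where 3.55% of 1155 genes were higher and 6.67% lower. Dcn rested on 19 UMIs in 9 of 19 control cells and 55 UMIs in 8 of 22 GC cells, at 92.5 and 381 CPM (log2 ratio 1.99). Lum rested on 25 UMIs in 7 cells and 125 in 11 cells, at 122 and 867 (2.78). The 92.5 of Dcn in control stood beside 70.1 in B cell-like cells. Without the top cell of each library Dcn was at 74.5 and 295 and Lum at 81.8 and 718. Osteoblast markers summed to 9843 and 23920 CPM and pericyte markers to 5613 and 7927, 7 of 7 found in both, and their part was not tested. With Leiden resolution 0.5, 15 of these cells, 6 of control and 9 of GC, fell outside the pericyte cluster. The same numbers fell outside with no doublet removal, 2 times as many doublets removed, or members and lists kept in clustering. With at least 1000 genes per cell 5 and 7 did. With at most 5% mitochondrial UMIs 26 of 27 cells fell in an unnamed skeletal cluster of 248. With Leiden resolution 2 all 41 stayed together.

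In endothelial-like cells Bgn was at 361 and 491 CPM, the one member found in more than 50% of the 54 control and 83 GC cells. Ogn had 3 UMIs in control and 47 in GC, but 38 of the 47 came from 1 cell, without which it was at 20.5 CPM.

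Over all callus cells 2 of 10 members, Prelp (170 and 68.4) and Epyc (60.6 and 19.9), were lower past the fold and none higher, where 0.304% of 15111 genes were lower and 0.265% higher. Fmod was at 537 and 353, Lum at 404 and 305, Aspn at 163 and 132 and Omd at 176 and 140. Dcn was at 1212 and 1499, Chad at 1019 and 1375 and Bgn at 1537 and 1681. With fewer cells of a type and less RNA per cell both able to give a lower value here, they cannot be told apart over all cells. For Aspn the chondrocyte-like share of UMIs was 58.3% in control and 26.2% in GC, and its tendon cell-like share 9.45% and 24.6%.

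**Figure D3:**
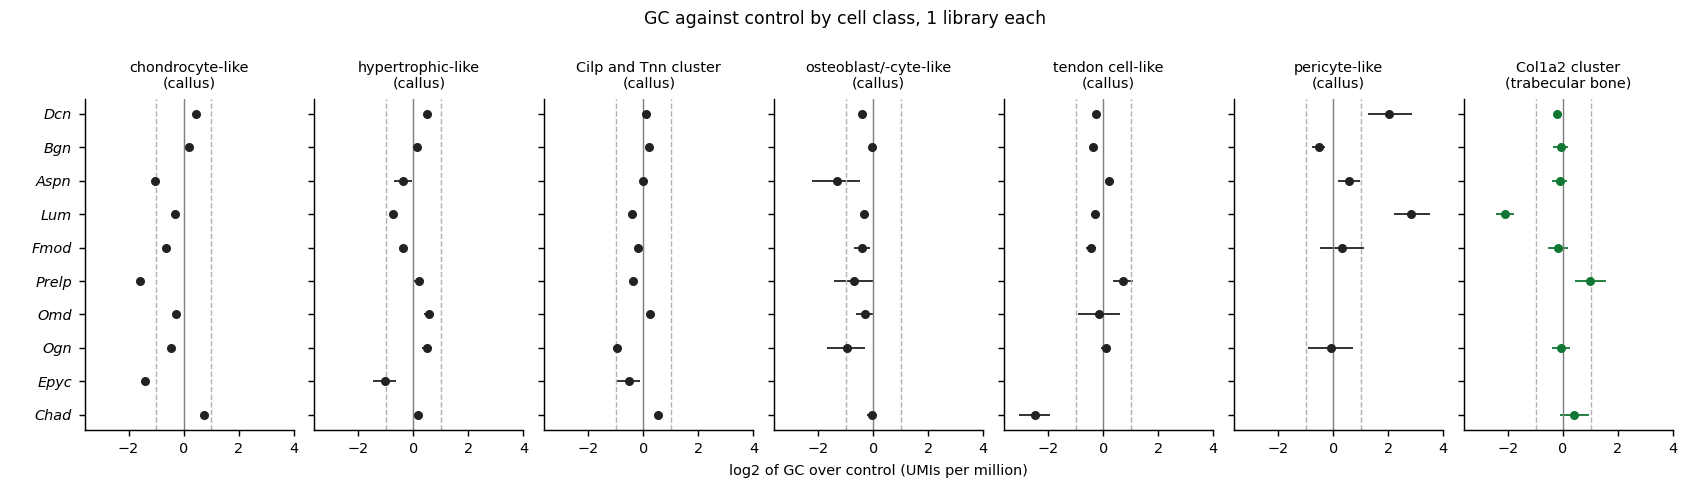
Log2 ratio of GC to control of each gene in 6 callus classes (black) and the trabecular Col1a2 cluster (green), computed from CPM without an added value; bars are 95% intervals of the ratio from counting error, dashed lines mark a log2 ratio of -1 and 1, and genes with under 50 UMIs are not drawn. Prelp, Epyc and Aspn lie below -1 in chondrocyte-like cells, Chad lies at the lower end in tendon cell-like cells, and Lum lies on opposite sides in pericyte-like cells and the Col1a2 cluster; with 5 CPM added, Epyc in hypertrophic cells is at -0.66.

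Read as a mix, the members' UMIs in chondrocyte-like cells held a larger share of Chad and Dcn and a smaller share of Fmod and Prelp in GC. Of 273370 UMIs of the family in control and 156429 in GC, Chad made up 19.4% and 28.7%, Dcn 22.4% and 27.0%, Fmod 11.4% and 6.44%, Prelp 4.14% and 1.23% and Bgn 25.9% and 26.1%. In hypertrophic cells Chad was at 30.3% and 29.2% and Dcn at 27.7% and 33.7%. In tendon cell-like cells Aspn made up 22.0% and 28.2% and Chad 2.73% and 0.551%. All members together were at 6282 and 7093 CPM in chondrocyte-like cells, 4836 and 5650 in hypertrophic ones, 9562 and 9882 in the Cilp and Tnn cluster and 19535 and 17553 in tendon cell-like cells. After thinning to 1000 UMIs, a tendon cell-like cell held a median of 5 of the 10 members in both libraries, a chondrocyte-like cell 3, and a B cell-like cell 0.

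**Figure D4:**
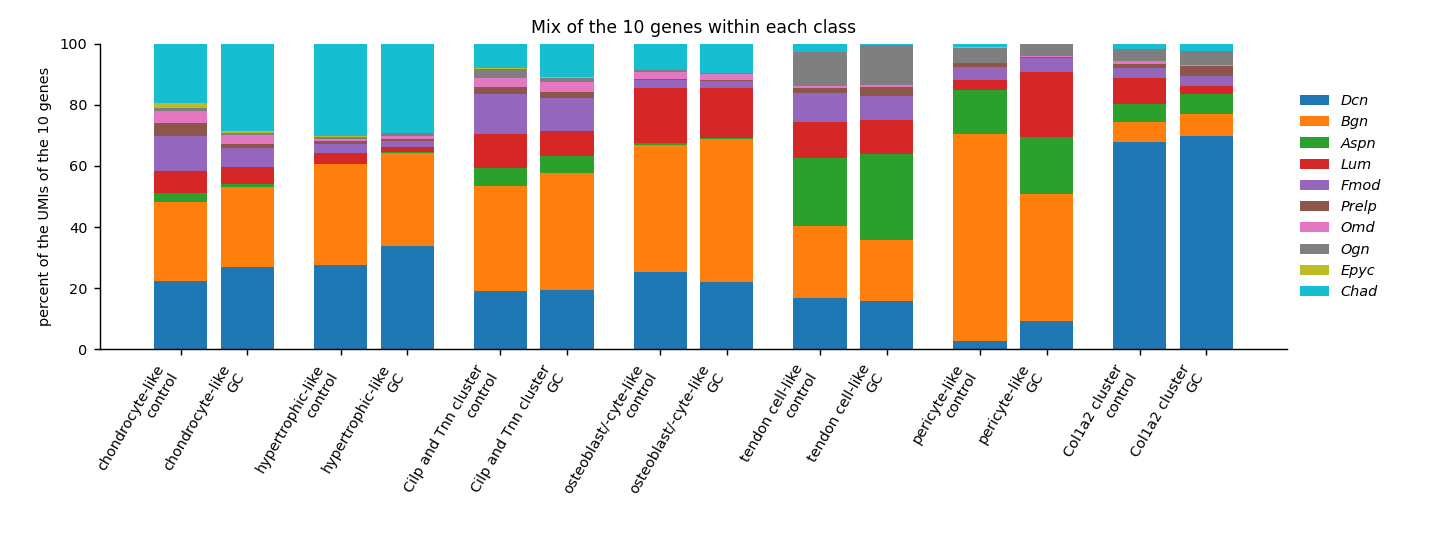
Share in percent of each gene among the UMIs of the 10 genes, per class and library (bars add up to 100%, axis from 0); 7 classes are shown, the Col1a2 cluster being the only one of trabecular bone. Chad made up 28.7% of these UMIs in chondrocyte-like cells of GC callus against 19.4% in control, and Dcn 67.9% or more in the Col1a2 cluster of both libraries.

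Trabecular bone held the family in 1 small cluster. This cluster, led by Col1a2, Col1a1 and Sparc, had 17 of 3832 control and 43 of 4604 GC cells, carried 12 of 12 stromal progenitor and 4 of 4 tendon markers with endothelial ones, and was left unnamed. Of 11 osteoblast or osteocyte markers, which include Col1a1, 6 were found in this cluster in control and 9 in GC. They summed to 10545 and 17909 CPM. The osteocyte genes Dmp1 and Mepe of that list were at 0 UMIs in both libraries. No cluster of this tissue was called chondrocyte-like or osteoblast-like. The cluster held at least 88.2% of the UMIs of each member in each library, except for Omd in GC (72.2% of 18 UMIs) and Epyc, of which 1 UMI was found in all trabecular cells. Neutrophil-like cells, 2526 and 3127 of the cells, had a Dcn UMI in 0.0807% and 0.195% of those deep enough to be thinned to 1000 UMIs, and in 0.396% and 0.831% without thinning.

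Dcn was higher in these cells than in each callus class, at 15254 CPM (14577 to 15954) in control and 13161 (12713 to 13622) in GC. Of the family's UMIs in the cluster it made up 67.9% and 70.0%, against 16.9% and 15.7% in tendon cell-like cells of the callus. It was found in 13 of 17 and 34 of 43 cells. Aspn was at 1351 and 1238, Bgn at 1423 and 1344, Ogn at 919 and 866 and Fmod at 767 and 672, all with ratio intervals that included 1. Chad was at 360 and 474, but 1 cell held 27 of its 45 control UMIs and another 53 of its 117 GC UMIs.

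In the Col1a2 cluster 1 of 8 members, Lum, was lower past the fold and none higher, where 8.04% of 1119 genes were lower and 6.61% higher. Lum was at 1887 CPM (1654 to 2143) in control, from 236 UMIs in 9 of 17 cells, and at 437 (359 to 528) in GC, from 108 UMIs in 16 of 43 cells, a log2 ratio of -2.10. Without the cell with most Lum UMIs in each library it was at 1454 and 330. Prelp was at 288 (202 to 398) and 571 (480 to 673), a log2 ratio of 0.98 that sat just inside the fold. Omd, with 25 and 13 UMIs, was under the count minimum. Stromal progenitor markers, 12 of 12 found in both, summed to 9993 CPM in control and 2190 in GC, and osteoblast markers to 10545 and 17909. Pericyte markers summed to 24.0 (2 of 7 found) and 1631 (7 of 7), tendon markers to 304 and 1149 and erythroid markers to 1575 and 22947. The part of these marker shifts in the values of the members was not tested.

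Over all trabecular cells 0 of 8 members were past the fold, where 0.562% of 12107 genes were lower and 0.438% higher. All members except Dcn lay under 10 CPM, where the added 5 CPM shrink a ratio. Prelp was at 1.07 and 3.90 (ratio 3.64, 2.51 to 5.41), Lum at 7.19 and 3.03 (0.422, 0.334 to 0.530), Dcn at 57.3 and 89.4 (1.56, 1.48 to 1.65) and Chad at 1.52 and 3.39. The Col1a2 cluster made up 0.372% of the control and 0.669% of the GC UMIs of this tissue. Its share and 7 of the 8 members were higher in GC, and the part of the share in these values was not tested.

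The measured genes of the lists that build, cut or bind the family were all inside the fold in chondrocyte-like cells. Of the enzymes of chondroitin and dermatan sulfate chains, 0 of 21 measured were past it, with a median log2 ratio of -0.08 (0.03 over all genes). Their lowest values were Csgalnact1, which starts chondroitin chains (94.5 and 56.3 CPM, -0.70), and Chst11, which sulfates them (455 and 333, -0.44), and the highest was Chsy3, which lengthens them (38.8 and 58.6, 0.54). Of the keratan sulfate enzymes 0 of 4, of the proteases 0 of 8 and of the signal partners and receptors 0 of 16 were past it. The proteases Adamts1 (54.0 and 102) and Mmp13 (161 and 279) had the highest ratios of their list, at 0.86 and 0.78. Of 5 measured relatives with leucine-rich repeats, Chadl, close to Chad in sequence, was lowest (148 and 88.5, -0.71), and all 5 were under 0.

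In hypertrophic cells 1 of 6 measured proteases was lower past the fold, the collagenase Mmp13 at 3584 and 1682 CPM (-1.09), and 0 of 20, 0 of 4 and 0 of 16 genes of the chondroitin sulfate, keratan sulfate and signal lists. Mmp13 was also lower past it in tendon cell-like cells (1 of 6 measured), at 1951 and 810 (-1.26), along with Tgfb2, a ligand of the TGF-beta family (242 and 93.8, -1.32). In the Cilp and Tnn cluster the keratan sulfate sulfotransferase Chst2 was lower past it, at 15.7 and 2.97 (-1.38, 1 of 4 measured). Of all measured genes, 0.299% in hypertrophic, 3.37% in tendon cell-like and 0.636% in Cilp and Tnn cells were lower past the fold. In the Col1a2 cluster 3 of 6 proteases were, namely Mmp2 at 903 and 364, Adamts5 at 584 and 247 and Mmp14 at 264 and 121, where 8.04% of all genes were lower past the fold. Stromal progenitor markers summed to 9993 and 2190 CPM in the same cells, and their part in the protease values was not tested. None of the chain enzyme, protease and signal lists had a gene higher past the fold in these classes. Over all trabecular cells the sulfotransferase Chst3 was lower past it, at 7.05 and 0.0812 (1 of 18 measured), where 0.562% of 12107 genes were. In the Col1a2 cluster 0 of 22 genes of that list reached the count minimum, so the value does not describe the cells that held the family. B cell-like cells were 316 in control and 16 in GC trabecular bone, and the part of the cell mix was not tested. In chondrocyte-like cells Sgk1, of the GC-induced genes, was the one past the fold, at 523 and 1124 CPM (1.10).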

How the data were processed

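Cells of 2 callus and 2 trabecular bone samples were profiled with 10x Genomics 3′ scRNA-Seq. The deposited matrices held raw UMI counts per gene and barcode, made by the authors with Cell Ranger against mm10. The file headers name version 4, and the submitters' processing notes name Cell Ranger 5.0.1 and Seurat 3.2.0. The GC callus matrix held called cells only; in the other 3, barcodes with at least 500 UMIs were called against droplets of rank 45001 to 90000 (10000 simulations, false discovery rate 0.01), which was tested on simulated data. That difference in calling can move cell numbers and depth between the callus libraries. Cells with at least 200 genes and at most 10% mitochondrial UMIs were kept, and the highest doublet scores (0.8% per 1000 cells) were removed. Total UMIs were 95852254 and 64388215 in control and GC callus and 41239842 and 45876714 in control and GC trabecular bone, which limits the precision to the intervals given. Cells of a tissue were clustered (2000 variable genes, 30 principal components, 15 neighbors, Leiden resolution 1, seed 1) without 79 genes, the members and lists among them. In the main clustering only, a mixed cluster of at least 100 cells was divided again on 15 principal components. In the alternatives a cluster took the main class that held most of its cells. A cluster was named from marker lists (at least 2-fold, in at least 10% of cells, at least 3 markers), a naming rule settled after the clusters were seen. Mixed clusters of the callus (5 control and 211 GC cells) were left out of the classes but entered the values over all callus cells. They held 122 and 11450 UMIs of the family, at 3735 and 6106 CPM. In GC callus these were 3.52% of the Dcn and 3.97% of the Bgn UMIs of the library. Mixed cells of trabecular bone were kept, as the Col1a2 cluster. Counts were summed per class and library and scaled to CPM. With 1 library per group no test was run. All members were named. From each list (chondroitin and dermatan sulfate enzymes, keratan sulfate enzymes, proteases, signal partners and receptors, other leucine-rich matrix proteins, GC-induced genes) the rule was the 3 highest and 3 lowest ratios, of which the most extreme are printed, and for likeness the 3 genes with the highest correlation, of which the first are printed. Members and lists were chosen with earlier results of these data known. Alternatives covered filters, doublets, resolution, scaling, pseudocount (1 and 20 CPM) and UMI minimum (0 or 200 UMIs). They also covered thinning to 1000 UMIs, means over cells and taking off the CPM of B cell-like cells. The UMI minimum changes which genes are counted and not their ratios. A further 3 were chosen after seeing the data. The software was Python 3.11.15 with leidenalg 0.10.2 and igraph 0.11.9 for clustering, scikit-learn 1.9.0, pandas 2.3.3, scipy 1.17.1 and numpy 2.4.6 for the rest, and matplotlib 3.10.9 for figures.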

Additional observations from a re-analysis of the deposited data

Results flagged for a closer look

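Lum had opposite directions in pericyte-like cells of the callus and the Col1a2 cluster of trabecular bone. In tendon cell-like and osteoblast or osteocyte-like cells of the callus Lum was lower in GC (log2 ratios -0.30 and -0.33). Its log2 ratio of GC to control was 2.78 in pericyte-like cells of the callus (25 and 125 UMIs) and -2.10 in the Col1a2 cluster of trabecular bone (236 and 108 UMIs), a difference of 4.88. The classes are not the same cells, each ratio compares 1 library with 1 library, and the difference was not tested.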

How the results depend on the processing

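No paired analysis was possible because each group holds 1 library. In chondrocyte-like cells 3 members were past the fold, and 1 was with 2 times as many doublets removed or with clusters 4, 6, 11 and 23 weighted equally. Of the 19 alternatives there, 12 gave 3, 5 gave 2 (Prelp and Epyc, without Aspn) and 2 gave 1, and among the 12 Fmod took the place of Aspn after thinning and of Epyc with the mean over cells. In hypertrophic cells it was 0, and 1 with at most 5% mitochondrial UMIs, with Leiden resolution 0.5 or with the mean over cells. In the Cilp and Tnn cluster it was 0, and 1 with no doublet removal or after thinning. In osteoblast or osteocyte-like cells it was 1, and 0 with at least 1000 genes per cell, with members and lists kept in clustering, with a pseudocount of 20 CPM, with at least 200 UMIs, with the mean over cells, after thinning or without the top cell. In tendon cell-like cells it was 1, and 0 with at least 200 UMIs or after thinning. In pericyte-like cells it was 2, 5 with no minimum of UMIs, and 0 with at least 200 UMIs or after thinning. In the Col1a2 cluster it was 1, 3 with the mean over cells, and 2 with at most 5% mitochondrial UMIs, 2 times as many doublets removed, members and lists kept in clustering, mitochondrial, ribosomal protein and hemoglobin genes left out, no minimum of UMIs, median-ratio scaling or without the top cell. Over all trabecular cells it was 0, and 2 with a pseudocount of 1 CPM. The cause of these changes was not tested, except that a higher minimum leaves fewer genes measured. Equal weights and leaving out cluster 1 or the top cell were chosen after seeing the data. Of the 62 ratios of a member in a class, 40 kept their sign in all alternatives that gave a value and 22 turned it in at least 1. A changed UMI minimum or pseudocount cannot turn a sign, so those alternatives could not add to the 22. Tendon cell-like cells never formed a cluster of their own in the 7 other clusterings, so their ratios come from 10 of 17 alternatives. Osteoblast or osteocyte-like cells fell into larger clusters with no doublet removal (703 cells), 2 times as many doublets removed (600) and Leiden resolution 0.5 (863). Their ratios come from 14 of 17 alternatives, and those of pericyte-like cells from 12. The 7 other clusterings left out the second division of mixed clusters, so they did not repeat the main procedure. Classes of 17 to 43 cells rest on few cells, and no value here carries the error between mice.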
